A study of Homo sapiens with 2 samples.

Results

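Among the mRNAs that the study listed as up or down regulated in LBH589-treated SK-NEP-1 cells, 36 genes of the ZNF series, read by 37 probes, were taken by 1 rule, a gene symbol that starts with ZNF followed by a digit. They belong to 1741 gene symbols in the rows of both lists used here, which are the first 1002 of 3162 rows of up regulated mRNAs and the first 952 of 3426 rows of down regulated mRNAs. The rows of each list ran from the largest difference downward. In the deposited processed values the last of them stood at 1.96 (LBH589 minus DMSO, log2) in the up regulated list and at -1.99 in the down regulated list. The members just inside these ends were ZNF404 at 1.97 and ZNF510 at 2.02 on the higher side, and ZNF573 at -2.01 and ZNF620 at -2.08 on the lower side. Values just outside cannot be given for this family, because probes beyond these rows have no gene name here.

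The established human cell line SK-NEP-1 served in the study as a model of Wilms tumor, a kidney tumor of childhood. LBH589 (panobinostat) inhibits histone deacetylases, which take acetyl groups off histone tails. Cells received 100 nM LBH589 or the same volume of its solvent DMSO for 24 h, and RNA freed of rRNA was labeled with Cy3 and hybridized to 1 Arraystar Human LncRNA array per condition. With 1 array per condition no difference has a replicate check, no test was made, and differences between the cultures or the labeling reactions cannot be told apart from those of the drug. All members were thus selected on the difference between these same arrays, as the study's own normalized values gave it, so their direction and size are a description of the listed probes. The identity of the cells could not be checked from these rows. Of 10 Ewing sarcoma marker genes 4 had a probe there (NKX2-2, CAV1, GAS1 and FCGRT), all listed as lower, and of 11 kidney progenitor and blastema markers 2 had one (NCAM1 and MEOX1), both listed as higher, so that the listing itself fixed the sign of their differences. In DMSO NKX2-2 read 290, FCGRT 1255, GAS1 16950 and the brighter CAV1 probe 77441. NCAM1 and MEOX1 read 20.1 and 11.6 there, not well above background. Selection on the difference favours bright DMSO signals among lower genes and dim ones among higher genes, so these levels do not settle the identity. The remaining markers of both lists have no named probe here.

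ZNF genes encode proteins with classical zinc fingers, repeated loops in which cysteines and histidines hold a zinc ion and which bind DNA. Many also carry a KRAB box, which recruits the scaffold TRIM28 and with it the histone methyltransferase SETDB1, heterochromatin proteins and complexes that contain histone deacetylases, and many members of this class are known to silence transposable elements. The family grew by tandem duplication, and a large share of it lies in clusters of neighbouring, closely related genes on chromosome 19. In RefSeq (GRCh38.p14) 250 of 517 protein-coding ZNF genes (48.4%) lay on chromosome 19, so that 233 of those and 249 on other chromosomes had no probe in the rows used here.

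Because related ZNF genes share sequence, the probes themselves decide what was measured. All 37 probes were 60 bases long, and no 2 of them shared 20 or more bases in a row. The longest shared run was 18 bases, in the probes of the cluster neighbours ZNF701 and ZNF813:
ZNF701 and ZNF813: GATTGACTTCTAAAGACT
For 10 of the 37 probes the study's annotation names further transcripts that the probe may read. They include those of ZNF813 and ZNF701, which have 1 such extra transcript in common, so that signal from a close relative was not separated there. Probes outside the rows used here have no gene name, so members may have further probes there. Within these rows ZNF540 was the only member gene with a pair of probes. These sit in different transcripts of the gene and share the 11 bases in capitals, after which the sequences part:
ZNF540 probe 1: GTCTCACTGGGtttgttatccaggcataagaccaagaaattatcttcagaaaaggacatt
ZNF540 probe 2: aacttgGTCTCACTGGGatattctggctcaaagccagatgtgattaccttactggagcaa
The probes of ZNF573 and ZNF30, both on chromosome 19 and both listed as down regulated, are shown for contrast with those of their up regulated neighbours, with no capitals because neither has such a shared run:
ZNF573: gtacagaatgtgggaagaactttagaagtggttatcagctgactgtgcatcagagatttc
ZNF30: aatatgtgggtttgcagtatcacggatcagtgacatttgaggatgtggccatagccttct

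Each array held 58921 probes. Those well above background numbered 38885 (66.0%) for DMSO and 37308 (63.3%) for LBH589. The DMSO array was the brighter, with its 75th percentile of signal at 189 beside 108 for LBH589, so the log2 signal of each array was set against its own 75th percentile and LBH589 minus DMSO was taken. A signal not well above background gives only a bound. In that case the dim side was set at the detection limit of its array (21.3 for DMSO and 14.5 for LBH589, the lowest signals that passed as well above background) or at the probe's own signal where that was higher, and the fold is written "at least". Errors after a ± are the measurement errors that the scanner software gives for the spots, combined over both arrays on the log2 scale, and for a bound they include the error of the dim spot. For 15 probes printed on 10 spots each, the median SD between spots of 1 array was 0.089 (log2) and the highest 0.36, and their differences between the arrays ran from -0.91 to 1.60, with 14 of the 15 under 2-fold.

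Of the 37 ZNF probes 23 were listed as up regulated and 14 as down regulated. By the scaled signals 22 were at least 2-fold higher after LBH589 and 6 at least 2-fold lower, while the other 9 had bounds under 2-fold. All 9 were dim on 1 array, so that these bounds do not limit how large their differences were, and with their own signals they lay past 2-fold. Without scaling the split was 16 higher and 10 lower, and in the deposited processed values it was 23 and 14. Over the whole array, 41574 probes passed background on 1 array or both. Of these 12.3% were at least 2-fold higher and 10.2% at least 2-fold lower, and 2.49% and 1.65% passed 5-fold. Nothing is read from the members' counts against these shares, since the lists were made from this contrast. The median difference over the ZNF probes was 1.28 (log2), with a range from -2.68 to 4.41, beside -0.01 over the 41574 probes. Since 23 of the 37 values are bounds, neither end limits the members. With own signals the median was 2.33 and the range -3.36 to 5.92, and over the 14 probes measured on both arrays the median was 2.64.

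**Figure D1:**
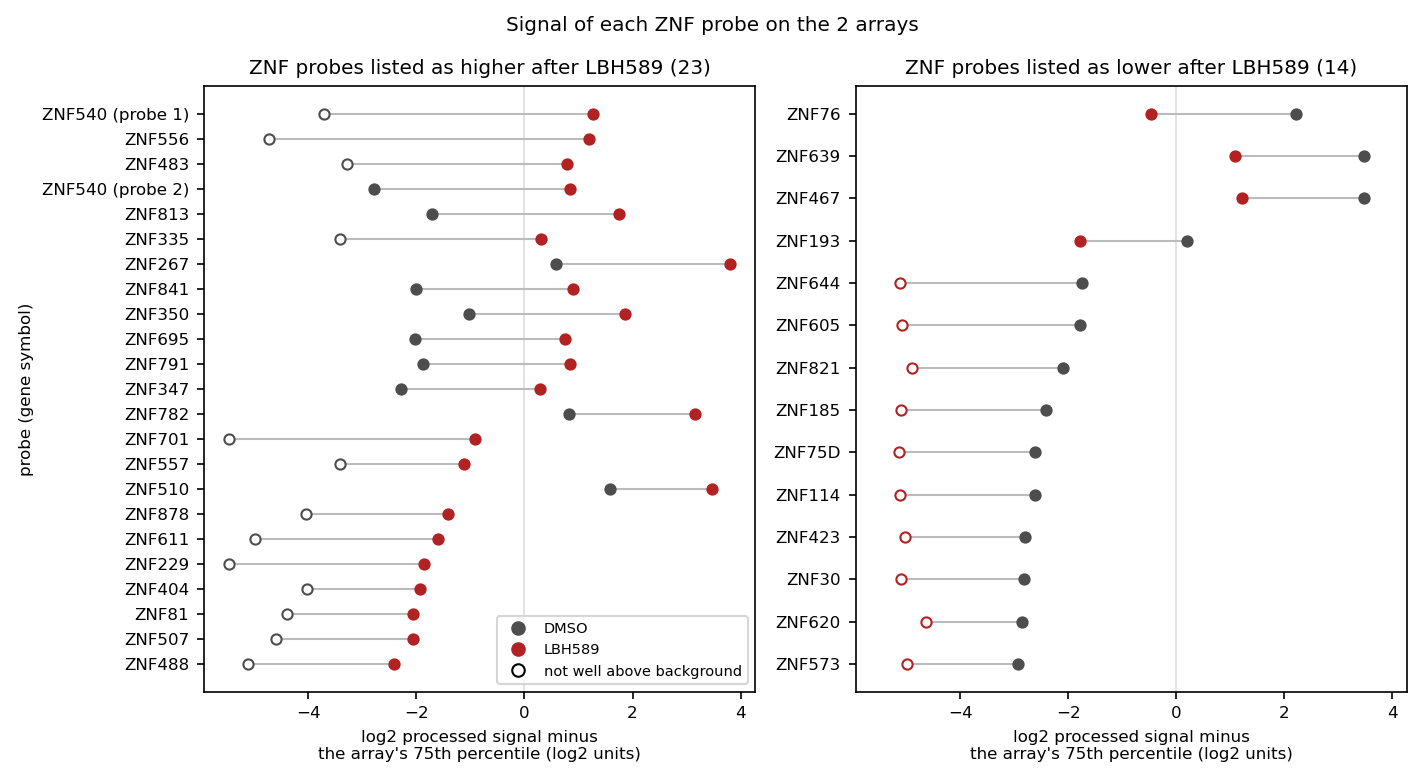
Scaled log2 signal of every ZNF probe on the DMSO array (grey) and the LBH589 array (red), each relative to its own 75th percentile, for the 23 probes listed as higher (left) and the 14 listed as lower (right). Open circles mark signals not well above background: 13 higher probes were dim on the DMSO array and 10 lower probes were dim on the LBH589 array.

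The 2 directions differed in what the arrays could measure. Of the 23 probes listed as higher, 10 were well above background on both arrays and 13 only after LBH589. Of the 14 listed as lower, 4 were measured on both arrays and 10 only in DMSO. All 14 probes measured on both arrays were past 2-fold, 9 of the higher and 2 of the lower ones past 5-fold; over the 34619 probes of the array measured on both, 11.6% and 10.6% were past 2-fold and 2.16% and 1.58% past 5-fold, higher and lower respectively. The plot of signals on each array shows the consequence: the 10 dim lower probes lie in a column at the left edge on the LBH589 array, where their signals were between 3.11 and 4.35. In the same rows 397 of 972 higher probes of other genes were dim in DMSO and 323 of 934 lower probes were dim after LBH589, leaving out 7 higher and 4 lower probes whose spot was marked as an outlier. The median over the ZNF probes was 2.57 on the higher side with bounds and 2.88 with the probes' own signals, beside 2.22 and 2.68 for the other listed higher probes. On the lower side it was -0.65 with bounds and -2.46 with the probes' own signals, beside -2.28 and -2.51 for the other listed lower probes.

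Chromosome 19 held 18 of the 37 probes, for 17 genes. There 15 probes were listed as higher and 3 as lower, while on all other chromosomes together 8 were listed as higher and 11 as lower. The median difference was 2.13 for the chromosome 19 probes and -0.10 for the others. Without scaling these medians were 1.33 and -0.89, and with normexp background correction and quantile normalization 0.95 and -0.22. With the probes' own signals in place of bounds these were 2.80 and -1.99, and over the probes measured on both arrays 2.89 (6 probes, all higher) and -0.05 (8 probes, 4 higher and 4 lower). Counted by gene, 14 of the 22 higher ZNF genes (63.6%) and 3 of the 14 lower ones (21.4%) lay on chromosome 19, where 48.4% of the coding ZNF genes of RefSeq lie.

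Genes of other kinds on chromosome 19 were counted beside them. Of 92 listed chromosome 19 probes for genes outside the ZNF series 61 were listed as higher (66.3%), against 918 of 1825 (50.3%) on other chromosomes. For the ZNF series the shares were 83.3% on chromosome 19 and 42.1% elsewhere. These shares describe the rows used here and were not tested.

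**Figure D2:**
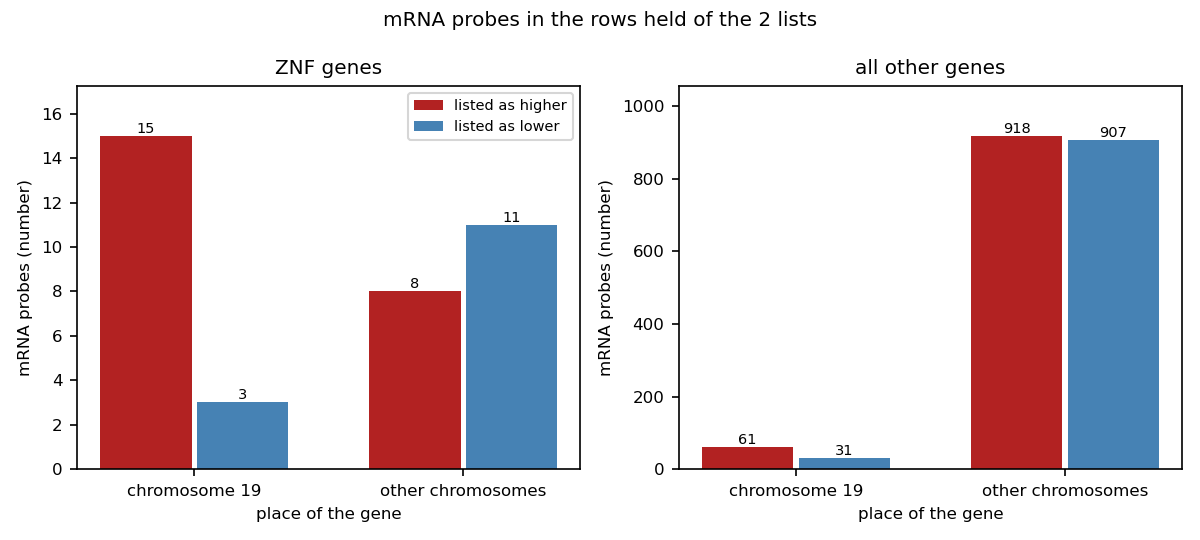
Number of mRNA probes listed as higher (red) and lower (blue), on chromosome 19 and on the other chromosomes, for ZNF genes (left) and all other genes (right). On chromosome 19 the counts were 15 and 3 for ZNF genes and 61 and 31 for the others; elsewhere they were 8 and 11, and 918 and 907.

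The densest group lay at 19q13.4, where 6 ZNF genes with listed probes stand between 52467592 and 53997546 (hg19) with at most 475 kb from one to the next. All 6 were higher after LBH589, with a median difference of 2.73 and a range from 1.55 to 3.47, in which 2 values are bounds, or a range from 2.57 to 4.55 with own signals. Their median was 1.93 without scaling and 1.54 with normexp background correction. In the same stretch 30 other coding ZNF genes of RefSeq had no listed probe and thus have no value here. The 6 genes, listed for their difference, do not describe the stretch as a whole. ZNF350 encodes ZBRK1, a KRAB protein known to bind BRCA1 and to repress transcription. It lies on the minus strand at chr19:52467592-52490079. Its probe read 92.5 in DMSO and 392 after LBH589, both well above background, a difference of 2.88 ± 0.21.

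ZNF841, 77.6 kb further on at chr19:52567718-52599018, read 47.0 and 201, a difference of 2.89 ± 0.24. ZNF347, at chr19:53641956-53662322, read 38.7 and 132, a difference of 2.57 ± 0.26. The genes ZNF350, ZNF841 and ZNF347, all on the minus strand, were thus similar in the size of their difference. ZNF813, on the plus strand at chr19:53970988-53997546, had the largest difference of the 4 genes measured on both arrays. It read 57.3 in DMSO and 365 after LBH589, a difference of 3.47 ± 0.23, or 11.1-fold.

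The other two genes of the group were not well above background in DMSO. ZNF701, at chr19:53073916-53090427, read 4.25 in DMSO and 57.3 after LBH589, so that it was at least 4.68-fold higher. ZNF611, at chr19:53206065-53233135, read 5.92 and 35.7, at least 2.92-fold higher. Both probes were therefore well above background only on the LBH589 array. The signal of the ZNF701 probe may include the further transcripts that the annotation names for it. The bound of ZNF611 did not pass 2-fold without scaling (0.75, log2) or with normexp background correction (0.72).

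Between 52 and 55 Mb of chromosome 19 (hg19) the lists held 2 other mRNA probes. ERVV-1, an envelope gene of an endogenous retrovirus that lies between ZNF611 and ZNF347, read 10.9 in DMSO and 27.4 after LBH589, a bound of 1.16 on the log2 scale. CDC42EP5, an effector of the small GTPase CDC42 that lies beyond ZNF813 at chr19:54976209-54984422, read 125 and 13.6, a bound of -2.31. Of the rows used of the lncRNA lists (given further on with the noncoding transcripts), 4 probes lay in that window, 3 listed as higher and 1 as lower.

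**Figure D3:**
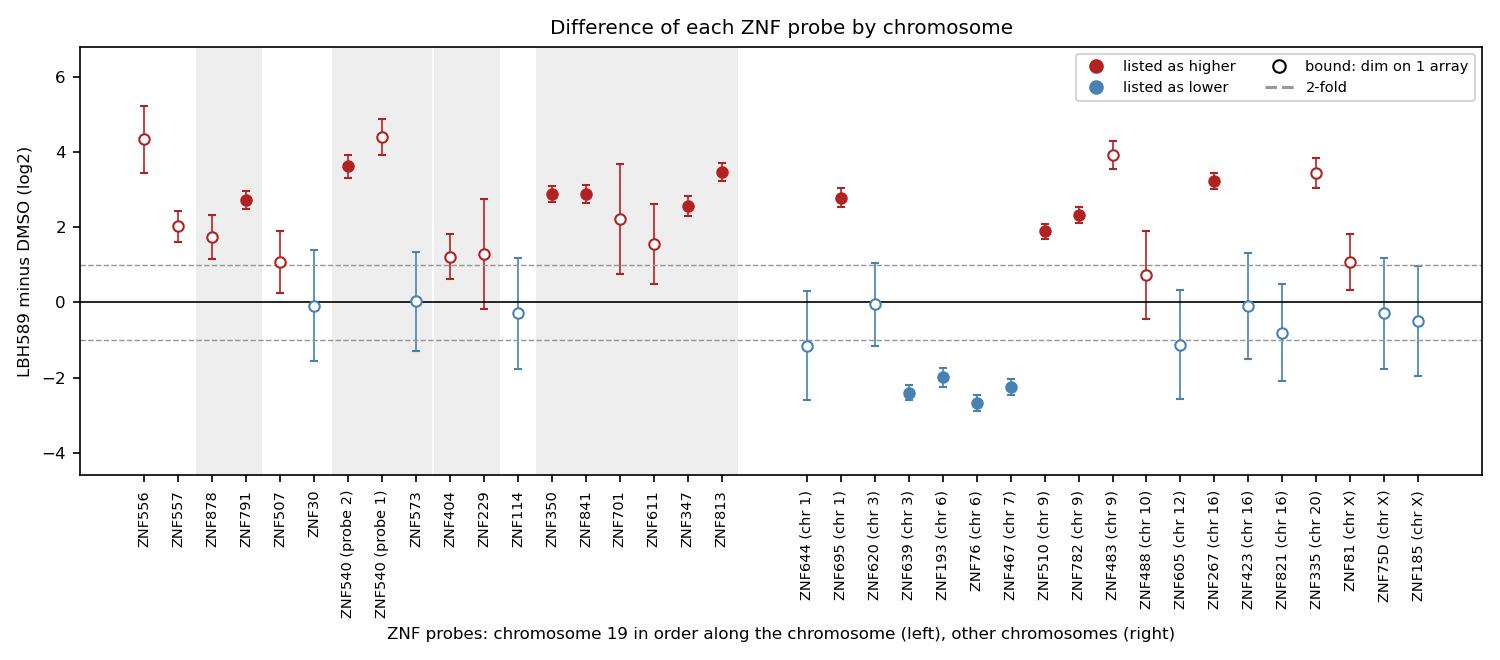
Difference of LBH589 minus DMSO (log2) for each ZNF probe, with chromosome 19 in order along the chromosome at the left and the other chromosomes at the right. Bars are the spots' measurement errors, open circles are bounds, grey bands mark chromosome 19 groups of more than 1 gene, and dashed lines mark 2-fold; the 6 genes of the band from ZNF350 to ZNF813 lie between 1.55 and 3.47.

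The annotated starts of these 6 genes were compared to show what neighbouring members share in sequence. RefSeq promoters of 250 bases before to 50 after the start were searched on both strands for a GC box (GGGCGG), for ATTGG as the core of a CCAAT box, for a TATA box read as TATAAA and for CCGGAAG, the core of the sites bound by ETS factors, which was added after the sequences had been seen. At least 1 promoter held CCGGAAG in 5 of the 6 genes, all but ZNF350. Shown are 80 bases before to 25 after the start for the 4 genes that hold it just past the start (GRCh38.p14, gene strand), with CCGGAAG in capitals. They come from chr19:52095741-52095845 (minus strand), chr19:52735020-52735124 (minus), chr19:53159029-53159133 (minus) and chr19:53467653-53467757 (plus):
ZNF841: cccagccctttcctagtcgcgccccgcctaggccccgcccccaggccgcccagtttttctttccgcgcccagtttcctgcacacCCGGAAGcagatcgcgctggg
ZNF611: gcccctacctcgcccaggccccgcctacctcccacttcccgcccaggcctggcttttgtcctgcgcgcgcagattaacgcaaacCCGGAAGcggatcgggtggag
ZNF347: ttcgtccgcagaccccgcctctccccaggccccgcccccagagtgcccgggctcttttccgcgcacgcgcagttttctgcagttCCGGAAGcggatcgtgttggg
ZNF813: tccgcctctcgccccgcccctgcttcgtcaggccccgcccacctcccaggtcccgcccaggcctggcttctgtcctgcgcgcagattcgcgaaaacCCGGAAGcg
ZNF genes between ZNF350 and ZNF813 without a listed probe held the motif as well. It was held by 12.2% of all genes with a promoter in the table, by 41.6% of the coding ZNF genes, by 47.9% of those on chromosome 19, and by 18 of the 24 coding ZNF genes between them that have a promoter in the table and no listed probe. GGGCGG was held by 5 of the 6 genes (83.3%) and by 91.7% of the same 24 ZNF genes, ATTGG by 3 of the 6 and TATAAA by 1. ATTGG was held by 6 of the 24 ZNF genes, 56.6% of those on chromosome 19 and 39.7% of all genes, and TATAAA by 0 of the 24, 3.20% and 14.0%. The motifs were counted separately, so that their letters may overlap, and a match is a description of these letters only.

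Outside 19q13.4 the chromosome 19 probes had a median difference of 1.51, or 2.58 with own signals, with 9 listed as higher and 3 as lower. The pair of ZNF540 probes, for a KRAB zinc finger gene at chr19:38085730-38105079, was higher on both. Probe 1 read 14.3 in DMSO, not well above background, and 260 after LBH589, at least 21.2-fold higher. Probe 2 read 27.3 and 194, both well above background, a difference of 3.63 ± 0.30, or 12.4-fold. The sequences of both probes, given above, differ outside the shared run, and both were selected as higher on this contrast.

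ZNF573 lies 124 kb past ZNF540 and was listed in the opposite direction. Its probe read 24.8 in DMSO and 3.43 after LBH589, where it was not well above background. Its DMSO signal was so close to the detection limit that the bound went to the other side (0.03), and no fold is given. ZNF30, at chr19:35417806-35436076, read 26.9 and 3.15, at least 1.06-fold lower, and ZNF114, at chr19:48774653-48790863, read 30.9 and 3.12, at least 1.22-fold lower. The 3 chromosome 19 genes listed as lower were thus all near the detection limit in DMSO and undetected after LBH589.

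ZNF556, at chr19:2867332-2878501 near the end of the short arm, read 7.10 in DMSO and 248 after LBH589, at least 20.2-fold higher. ZNF557, at chr19:7069470-7087978, read 17.7 and 50.04, at least 4.09-fold higher. Neither was well above background in DMSO. ZNF878 and ZNF791 are neighbours, 558 kb apart. ZNF878 read 11.4 and 40.8, at least 3.33-fold higher, and ZNF791 read 51.4 and 194, both well above background, a difference of 2.72 ± 0.24. Of these 4 genes only ZNF791 was measured on both arrays. The bound of ZNF878 did not pass 2-fold without scaling (0.94, log2) or with normexp background correction (0.72). That of ZNF557 did not with normexp (0.75).

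The last 3 probes on the higher side of chromosome 19 were dim in DMSO, so that only lower limits of their differences are known. ZNF507 read 7.79 in DMSO and 25.8 after LBH589, at least 2.11-fold higher. ZNF404 read 11.5 and 28.4, at least 2.31-fold, and its neighbour ZNF229 read 4.25 and 29.7, at least 2.42-fold. None of these 3 bounds passed 2-fold without scaling (0.28, 0.41 and 0.48, log2) or with normexp background correction (0.46, 0.34 and 0.64), and that of ZNF507 did not with quantile normalization (0.93). Where 2 or more listed ZNF genes of chromosome 19 had starts within 2 Mb of the next, which held in 4 groups, 3 groups had 1 direction and 1, that of ZNF540 and ZNF573, had both.

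On the other chromosomes ZNF483, on chromosome 9, had the largest bound. This gene, also named ZKSCAN16, encodes a protein with a SCAN domain, which pairs such proteins, besides its fingers. It read 19.4 in DMSO, not well above background, and 186 after LBH589, at least 15.2-fold higher. ZNF335, on chromosome 20, encodes a subunit of histone methyltransferase complexes and is known for mutations that cause microcephaly. It read 17.7 and 134, at least 10.9-fold higher.

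ZNF267, on chromosome 16, was measured on both arrays. It read 282 in DMSO and 1520 after LBH589, a difference of 3.23 ± 0.21, or 9.39-fold. ZNF695, on chromosome 1, read 46.1 and 183, a difference of 2.79 ± 0.25. ZNF782, on chromosome 9, read 336 and 969, a difference of 2.33 ± 0.20. Its neighbour ZNF510, 38.9 kb away, read 566 and 1206, a difference of 1.89 ± 0.20, so that all 3 members on chromosome 9 were higher. The remaining higher members were ZNF81 on chromosome X and ZNF488 on chromosome 10, whose bounds were 1.08 and 0.73 and which were dim in DMSO.

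The members that were lower and measured on both arrays all lay outside chromosome 19. ZNF76, a relative of the transcriptional activator ZNF143, lies on chromosome 6. It read 874 in DMSO and 78.4 after LBH589, a difference of -2.68 ± 0.21, or 6.40-fold lower. ZNF639 (ZASC1), a gene of a part of chromosome 3 that is amplified in squamous cell carcinomas, read 2109 and 229, a difference of -2.40 ± 0.21. These 2 were past 5-fold on the lower side and 13 probes on the higher side, but bounds hold both counts down: with own signals they were 8 and 20, and in the deposited processed values 7 and 19.

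ZNF467, on chromosome 7, whose mouse counterpart is known to favour adipocyte over osteoblast differentiation, read 2094 in DMSO and 253 after LBH589, a difference of -2.25 ± 0.20. ZNF193, now named ZSCAN9 for its SCAN domain, lies on chromosome 6 and read 218 and 31.5, a difference of -1.99 ± 0.25. ZNF644, on chromosome 1, encodes a partner of the histone methyltransferases of the G9a family. It read 56.0 and 3.14, at least 2.22-fold lower, and was undetected after LBH589. With normexp background correction its bound did not pass 2-fold (-0.55, log2).

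The other 6 genes on the lower side were dim after LBH589, with bounds between -1.12 (ZNF605) and -0.05 (ZNF620). They include ZNF423, a partner of SMAD and EBF proteins, with a bound of -0.10, and ZNF185, which despite its name is a LIM-domain protein of the actin cytoskeleton and not a classical zinc finger protein, with a bound of -0.49. With their own signals all 14 lower probes lay between -3.36 and -1.79.

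**Figure D4:**
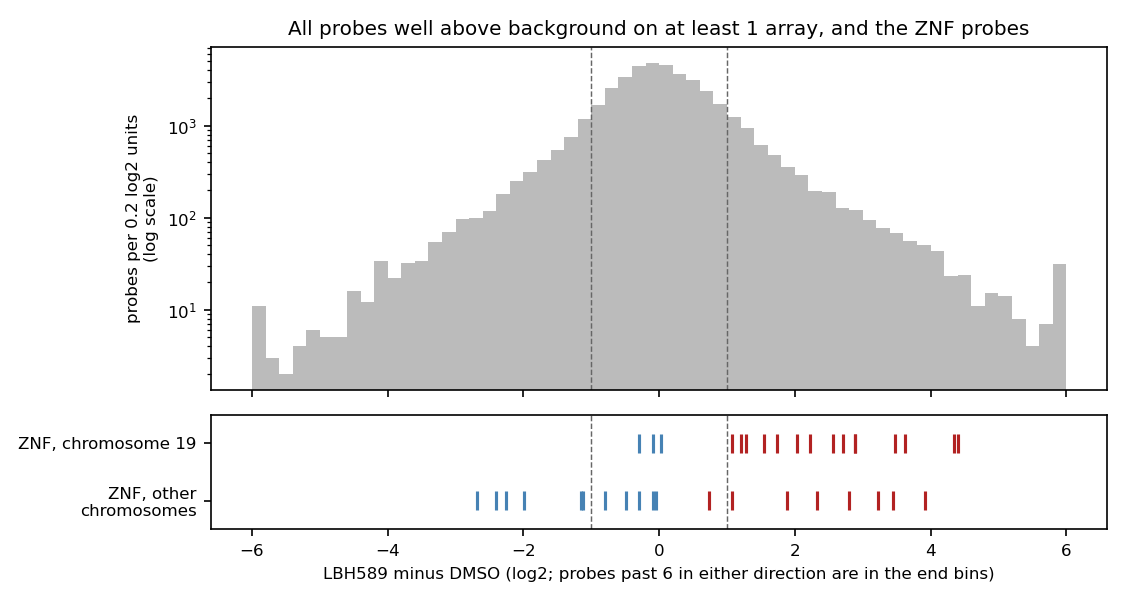
Distribution of LBH589 minus DMSO (log2) over the 41574 probes that passed background on 1 array or both (grey, log scale), with the ZNF probes below it as ticks (red listed as higher, blue listed as lower). The chromosome 19 ticks lie between -0.29 and 4.41 and the others between -2.68 and 3.92; values of lower members near 0 are bounds of probes that were dim after LBH589.

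Among noncoding transcripts, 15 probes in the rows used of the study's lncRNA lists (the first 1406 of 3910 up regulated and 1363 of 4125 down regulated rows) carried a ZNF name or were assigned to a ZNF gene, 8 of them listed as higher and 7 as lower. Of these 3 belonged to a member gene. An lncRNA listed under ATXN1L at chr16:71879898-71919174 runs antisense across ZNF821. It read 4.68 in DMSO and 104 after LBH589, at least 8.51-fold higher, while ZNF821 itself read 44.1 and 3.64, at least 1.74-fold lower. The pair thus stood in opposite directions, each with 1 dim array.

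RP11-170L3.8, a transcript that overlaps exons of ZNF267 on the same strand, read 11.2 in DMSO and 37.5 after LBH589, at least 3.06-fold higher, the same direction as ZNF267. LOC100507433, at chr19:38042272-38078248, is listed as overlapping exons of another ZNF540 transcript, since it ends before the position that the list gives for both ZNF540 probes, and as antisense to ZNF571. It read 32.7 and 3.19, at least 1.29-fold lower, while both ZNF540 probes were higher. The pseudogene transcripts ZNF192P1, ZNF815P and ZNF815 were measured on both arrays and had differences of 2.24, 1.93 and 1.89. ZNF815P lies within the span listed for ZNF815, on the same strand of chromosome 7, so that they are not separate loci. The transcript RP11-815I9.4 within ZNF286B had a difference of -2.56, and AK131520, from the bidirectional promoter of ZNF283 on chromosome 19, had 2.38.

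The proteins that KRAB zinc fingers work with were looked at through a list of 45 corepressor genes, of which 7 had a probe in these rows, 3 listed as higher and 4 as lower. SIN3B, a scaffold of a histone deacetylase complex, read 139 in DMSO and 698 after LBH589, a difference of 3.13 ± 0.21. GATAD2A, a subunit of the NuRD complex, read 31.7 and 80.1, a difference of 2.13 ± 0.29. UHRF1, which reads methylated DNA, read 6.27 and 19.4, at least 1.59-fold higher. All 3 of these genes lie on chromosome 19, which was noticed after their values were seen.

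On the lower side were 3 further NuRD genes and 1 corepressor. RBBP4, a histone-binding subunit, read 1307 in DMSO and 153 after LBH589, a difference of -2.29 ± 0.21. CHD3, a remodeling ATPase, read 257 and 33.2, a difference of -2.15 ± 0.25. MTA1 read 227 and 10.1, at least 8.97-fold lower, and NCOR1, which holds the deacetylase HDAC3 in its complex, read 52.4 and 4.77, at least 2.08-fold lower. TRIM28 and SETDB1 had no probe in these rows.

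Zinc finger genes with other names were counted in the same rows. Of 21 probes for 18 genes of the ZBTB, ZSCAN, PRDM and related series 7 were listed as higher and 14 as lower, with 5 at least 2-fold higher and 10 at least 2-fold lower and a median difference of -0.41, or -2.27 with own signals and -2.86 over the 7 probes measured on both arrays. Over all mRNA rows used here 1002 were listed as higher and 952 as lower. No difference from the ZNF series was tested. ZBTB8B read 57.3 in DMSO and 1060 after LBH589, a difference of 5.01 ± 0.23. PATZ1, a repressor with a BTB domain, had 3 probes, all lower, with differences from -3.28 to -2.28. ZXDB read 3641 and 287, a difference of -2.86 ± 0.20. MAZ, which binds GC-rich promoters, read 437 and 7.54, at least 17.3-fold lower.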

How the data were processed

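RNA from 1 DMSO-treated and 1 LBH589-treated SK-NEP-1 culture was read on 1 array each. The authors deposited the scanner output, in which each spot has an intensity (the background-subtracted processed signal), its error and flags coded 0 or 1. The file headers name Agilent Feature Extraction 11.0.1.1 and the submitters' processing notes 10.7.3.1. The authors also deposited processed values on the log2 scale, normalized in a way not given in the sources used here. Probe names and hg19 positions came from the first rows of the study's lists; their columns of fold changes hold the authors' own comparison and were not used.

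Control probes were left out and log2 processed signals of a probe's spots averaged, without spots marked as outliers (no ZNF probe had one). Each array was set against its 75th percentile. Python 3.11.15 and pandas 2.3.3 were used, also for quantile normalization, and limma 3.58.1 for normexp background correction. The scaling and the difference were tested on simulated data, in which all 200 changed probes were recovered at the 2-fold threshold. Those probes were well above background on both arrays and were changed by far more than 2-fold. The simulation therefore did not try the bounds used for probes dim on 1 array. No test was made, since each condition had 1 array, and precision is limited by the small number of arrays.

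The members, gene lists and thresholds were chosen with earlier results of these data known. Full values were given for every member on chromosome 19, the 5 largest rises and the 5 largest falls among the others, and members with 2 probes or a linked lncRNA probe. These were ranked with bounds beside measured values; by own signals ZNF488 would have taken the place of ZNF782 among the rises, and ZNF605, ZNF821 and ZNF185 those of ZNF639, ZNF467 and ZNF193 among the falls. ZNF510, ZNF423, ZNF185, ZNF605, ZNF620, ZNF81 and ZNF488, the genes of the other lists and ERVV-1 and CDC42EP5 were chosen after their values were seen. The normexp alternative took the median pixel signal of each spot and of its background. Protein features were planned and are not reported here. RefSeq (GRCh38.p14) gave symbols and promoters, with promoters for 21 of the 22 higher and 11 of the 14 lower genes.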

Additional observations from a re-analysis of the deposited data

How the results depend on the processing

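No value of a ZNF probe past 2-fold changed sign under quantile normalization, no scaling, the 75th percentile or the median taken over probes measured on both arrays, normexp with an offset of 50 and quantile normalization, the deposited processed values, own signals in place of bounds, a floor of 5, spots marked as outliers kept, or the probes measured on both arrays alone. Near 0, ZNF573 was at 0.03 and turned to -0.15 with quantile normalization, ZNF620 (-0.05) turned to 0.03 with the percentile over measured probes, and ZNF488 (0.73) to -0.07 without scaling. Leaving out scaling moved the median of all measured probes to -0.83 and the offset of normexp, by its construction, shrinks the differences of dim probes.

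The count at least 2-fold higher was 10 over probes measured on both arrays, and the count at least 2-fold lower was 10 without scaling, 14 in the deposited values and 14 with own signals. With normexp the counts were 15 higher and 4 lower, where the calls of ZNF557, ZNF878, ZNF611, ZNF229, ZNF404, ZNF81, ZNF507, ZNF605 and ZNF644 ended. All of these are bounds. Without scaling 16 were higher, and the calls of ZNF878, ZNF611, ZNF229, ZNF404, ZNF81 and ZNF507 ended. With quantile normalization those of ZNF81 and ZNF507 ended, which left 20. The chromosome 19 median was 1.33 without scaling, 0.95 with normexp, 2.91 in the deposited values, 2.89 over probes measured on both arrays and 2.80 with own signals. On other chromosomes it was -0.89 without scaling, -2.11 in the deposited values and -1.99 with own signals. The 19q13.4 median was 1.93 without scaling, 1.54 with normexp, 3.11 in the deposited values and 3.14 with own signals. For the other zinc finger and corepressor genes together it was -0.73, and -1.53 without scaling, -0.42 with normexp, -2.32 in the deposited values, -2.28 over probes measured on both arrays and -2.22 with own signals. The bound in place of the own signal is what separates the main counts from those with own signals; the cause of the other shifts was not tested.

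No paired analysis was possible because each condition has 1 array. The 23 ZNF probes with 1 dim array carry spot errors as high as 1.47 (log2), and signal over background limits their values. ZNF probes outside the rows used here were not analysed.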
